A study of Mus musculus with 6 samples.

Results

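Lamins and high mobility group proteins organise DNA in the nucleus, and their messenger RNAs were followed here in senescent and proliferating mouse hepatic stellate cells. Of the 9 genes considered (Lmnb1, Lmnb2, Lmna, Lbr, Hmgb1, Hmgb2, Hmgb3, Hmga1 and Hmga2), members were every probe set that the platform annotation gave to 1 of these symbols only. This left 18 of the 45101 probe sets on the array, which read 7 of the 18193 genes measured. Hmgb1 was not read, because its 5 probe sets are shared with other symbols, and Hmga1 is not analysed here, because no probe set was listed with its symbol.

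Stellate cells are liver pericytes that become matrix-producing myofibroblasts after injury. Each group had 3 Affymetrix arrays of total RNA from murine cells of C57Bl/6 background, and all 6 samples carried CMV-rtTA;TRE-GFP-shRNA.p53.1224, a transgene pair in which a transactivator under a broadly active viral promoter turns on a short hairpin RNA against p53 and a green fluorescent protein when doxycycline is present. The proliferating cells were given doxycycline at 1 ug/ml and are labelled as p53 knockdown, while the senescent cells are labelled as control treatment with p53 expression. The labels thus join senescence with p53 expression, and proliferation with p53 knockdown and doxycycline. Effects of these cannot be told apart here. Neither separate cultures nor separate animals are named for the replicates, and the p-values therefore cover the spread among these 6 samples, part of which may be technical.

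Lamin B1 and lamin B2 (Lmnb1, Lmnb2) and the A-type lamins (Lmna) polymerise into the lamina under the inner nuclear membrane, and the lamin B receptor (Lbr) anchors heterochromatin to it. HMGB proteins bend DNA through HMG boxes, whereas HMGA proteins bind the minor groove of AT-rich DNA through AT hooks. Loss of lamin B1 and of HMGB2 is a widely used sign of senescence, and HMGA proteins are known components of senescence-associated heterochromatin foci in fibroblasts.

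The array medians lay between 6.15 and 6.19 (log2). Cdkn1a, the p21 gene induced by p53, read 11.00, 11.03 and 11.10 on the proliferating arrays and 12.85, 12.63 and 12.86 on the senescent arrays, so the groups did not overlap. Of 15 stellate cell markers, 11 lay above background in each group. Over the 6 arrays, the mean of 12485 of all 18193 genes also did. Markers of other cell types did too, with 4 of 6 for hepatocytes, 5 of 7 for macrophages and 4 of 5 for biliary cells. Fewer did for lymphocytes, 1 of 5, and for endothelial cells, 2 of 7 in proliferating and 3 of 7 in senescent cells. These counts therefore do not identify the cell type. Background was set at 5.58, which 95% of 43 probe sets of olfactory receptor genes did not exceed on average. The stellate markers Lrat, Reln and Gfap were below it on all 6 arrays. Senescent cells had less of 7 of the 15 (limma, adjusted p under 0.05), and the other 8 did not pass. Pdgfra, Pdgfrb and Cygb had log2 changes of -2.09, -1.30 and -1.16, and the list's median was -0.49. The mean over the stellate list ran from 9.59 to 9.75 on proliferating arrays and from 9.11 to 9.16 on senescent arrays.

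All 6 mesothelial markers were above background, and they did not move one way. Msln, Krt19 and Upk1b were higher in senescent cells (0.79, 0.58 and 0.43), Lrrn4 and Wt1 lower (-1.80 and -1.11), and Upk3b missed the threshold (-0.19). With arrays scaled to spike-in RNA the 3 higher calls ended (0.20, -0.01 and -0.16). The mean over the mesothelial list ran from 10.81 to 11.10 on proliferating arrays and from 10.68 to 10.73 on senescent arrays. The part of either marker list in the results below was not tested. Proliferating replicate 1 was the lowest proliferating array for 7 of the 7 member genes.

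Senescent cells had less RNA of Lmnb1, Hmgb2 and Hmgb3, at 2.02-fold, 2.06-fold and 1.84-fold lower levels, and of Lmnb2 and Lbr, at 1.37-fold and 1.33-fold lower levels. They had more RNA of Hmga2, 2.28-fold, and slightly more of Lmna, 1.28-fold, a direction that turned when arrays were scaled to spike-in RNA. Each gene was read from its brightest probe set. Of the 7 genes, 5 were lower and 2 higher at an adjusted p under 0.05 (limma with Benjamini-Hochberg adjustment over all genes). Of all genes tested, 10.5% were called lower and 9.49% higher, 20% in all, and 27.5% of genes above background were called. The 3 senescent arrays did not overlap the 3 proliferating arrays for 7 of 7 genes, compared with 37% of all genes. Left out in turn, single arrays left 4 to 6 of the 7 genes called. There were 4 without proliferating replicate 2, without proliferating replicate 3 and without senescent replicate 1. RNA was taken from whole pellets, so fewer cells of one kind and less RNA per cell cannot be told apart.

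**Figure D1:**
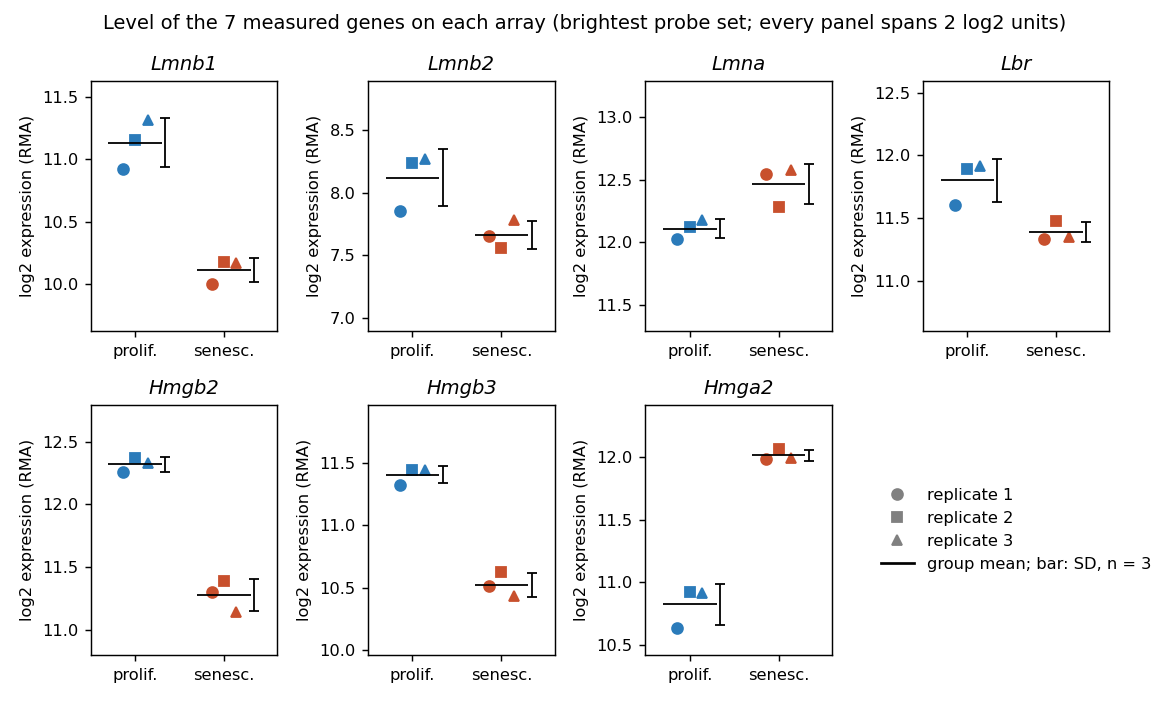
Level of each measured gene on each array (y axis, log2 RMA expression, every panel spanning the same range) for proliferating (blue) and senescent (orange) cells, with marker shape giving the replicate, a line the mean and a bar the SD (n = 3). The groups are apart in every panel, by 1.06 for Hmga2 and by 0.079 for Lmnb2, and Lmna is the other panel with higher senescent values, which turned under spike-in scaling.

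Lmnb1 (Entrez gene 16906), the lamin whose loss is most used as a marker of senescent cells, read 10.93, 11.16 and 11.32 in proliferating and 10.01, 10.18 and 10.17 in senescent cells. Every senescent array was thus below every proliferating one, with a gap of 0.75 between the nearest pair. Its log2 change was -1.02 ± 0.11 (SE, limma adjusted p = 5.51e-04), a 2.02-fold lower level with a 95% confidence interval of 1.70-fold to 2.40-fold. The gene's second probe set read 9.53, 9.72 and 9.88 against 8.67, 8.83 and 8.73 and gave -0.97 ± 0.10. These probe sets therefore differed by less than their errors. Among the 1919 genes called lower, Lmnb1 ranked 177 by size of change.

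Lmnb2 (Entrez gene 16907), the other B-type lamin, read 7.86, 8.24 and 8.27 in proliferating and 7.66, 7.56 and 7.78 in senescent cells, a gap of 0.079 between the nearest arrays. Limma gave a log2 change of -0.46 ± 0.12 (SE, adjusted p = 0.0303), or 1.37-fold lower. With the mean of its probe sets it was -0.22 (adjusted p = 0.0442). The call ended without proliferating replicate 2 or 3 or senescent replicate 1 or 2 (log2 changes of -0.45 to -0.38, adjusted p of 0.0864 to 0.109), and when arrays were centred on genes of middle level (-0.39, adjusted p = 0.0696). A second probe set lay below background on all 6 arrays, from 5.27 to 5.56, and its change of 0.01 ± 0.10 therefore bears on no level of the transcript.

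Lmna (Entrez gene 16905) encodes lamins A and C, which come from one primary transcript by alternative splicing. Its brightest probe set read 12.03, 12.12 and 12.18 in proliferating and 12.55, 12.29 and 12.58 in senescent cells. Senescent replicate 2 was nearest to the proliferating arrays, 0.11 above the highest of them. Its log2 change was 0.36 ± 0.09 (SE, limma adjusted p = 0.0305), and -0.24 (adjusted p = 0.251) with arrays scaled to the poly-A spike-ins. Read from its probe set without suffix it was 0.03 (adjusted p = 0.865). The call ended when any array other than senescent replicate 2 was left out (0.31 to 0.39, adjusted p of 0.0554 to 0.105).

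The 5 probe sets of Lmna did not read alike. In a separate fit over 45037 probe sets, where 12.4% were called, 1457670_s_at and 1425472_a_at passed with 0.61 ± 0.13 (adjusted p = 0.0211) and 0.52 ± 0.11 (adjusted p = 0.0208). The brightest, 1421654_a_at, missed the threshold (adjusted p = 0.0525), as did 1426868_x_at with 0.35 ± 0.11 (adjusted p = 0.0817), and the dimmest, 1452212_at at 5.97 to 6.13, gave 0.03 ± 0.08. The call of 1457670_s_at ended under spike-in scaling (0.02) and without proliferating replicate 2 or 3 or senescent replicate 1 (0.58, 0.64 and 0.61). That of 1425472_a_at turned to -0.07 under that scaling and ended without the same arrays or senescent replicate 3 (0.53, 0.53, 0.51 and 0.42).

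Lbr (Entrez gene 98386), which also has sterol reductase activity, read 11.60, 11.89 and 11.91 in proliferating and 11.33, 11.48 and 11.35 in senescent cells. The nearest arrays were 0.12 apart, with proliferating replicate 1 the closest to the senescent group. The change came to -0.41 ± 0.10 (SE, limma adjusted p = 0.0205), 1.33-fold lower. It missed the threshold without proliferating replicate 2 or 3 or senescent replicate 1 or 3 (-0.39 to -0.36, adjusted p of 0.0663 to 0.0745) and with median centring (-0.34, adjusted p = 0.0539).

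Hmgb2 (Entrez gene 97165), an HMG-box protein abundant in dividing cells, read 12.26, 12.37 and 12.33 in proliferating and 11.30, 11.39 and 11.14 in senescent cells. The groups were 0.87 apart at their nearest arrays. The log2 change was -1.05 ± 0.08 (SE, limma adjusted p = 1.46e-04), 2.06-fold lower with a 95% confidence interval of 1.81-fold to 2.36-fold. A second probe set of similar brightness gave -0.78 ± 0.09. The dimmest, whose groups overlapped, gave -0.36 ± 0.14 (limma over probe sets, adjusted p = 0.156), and reading the gene from it alone ended the call.

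Hmgb3 (Entrez gene 15354), an X-linked relative of Hmgb2, has a single probe set. It read 11.32, 11.44 and 11.44 in proliferating and 10.51, 10.63 and 10.43 in senescent cells, which puts every senescent array at least 0.70 below the proliferating ones. Its change came to -0.88 ± 0.08 (SE, limma adjusted p = 2.42e-04), 1.84-fold lower. Lmnb1, Hmgb2 and Hmgb3 ranked 177, 163 and 255 in size among the genes called lower.

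Hmga2 (Entrez gene 15364), an AT-hook protein of embryonic and transformed cells, went the other way. It read 10.64, 10.92 and 10.92 in proliferating and 11.99, 12.07 and 11.99 in senescent cells, with a senescent SD of 0.04 (n = 3) and a gap of 1.06 between the groups. The rise on the log2 scale was 1.19 ± 0.09 (SE, limma adjusted p = 1.30e-04), or 2.28-fold, with a 95% confidence interval of 1.97-fold to 2.64-fold and rank 109 among the 1726 genes called higher. All 4 of its probe sets passed, with 1.19, 1.45, 1.20 and 0.93 from the brightest to the dimmest. No left-out array ended the call of Lmnb1, Hmgb2, Hmgb3 or Hmga2 (largest adjusted p of 0.00505, 0.00139, 0.00220 and 0.00224).

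**Figure D2:**
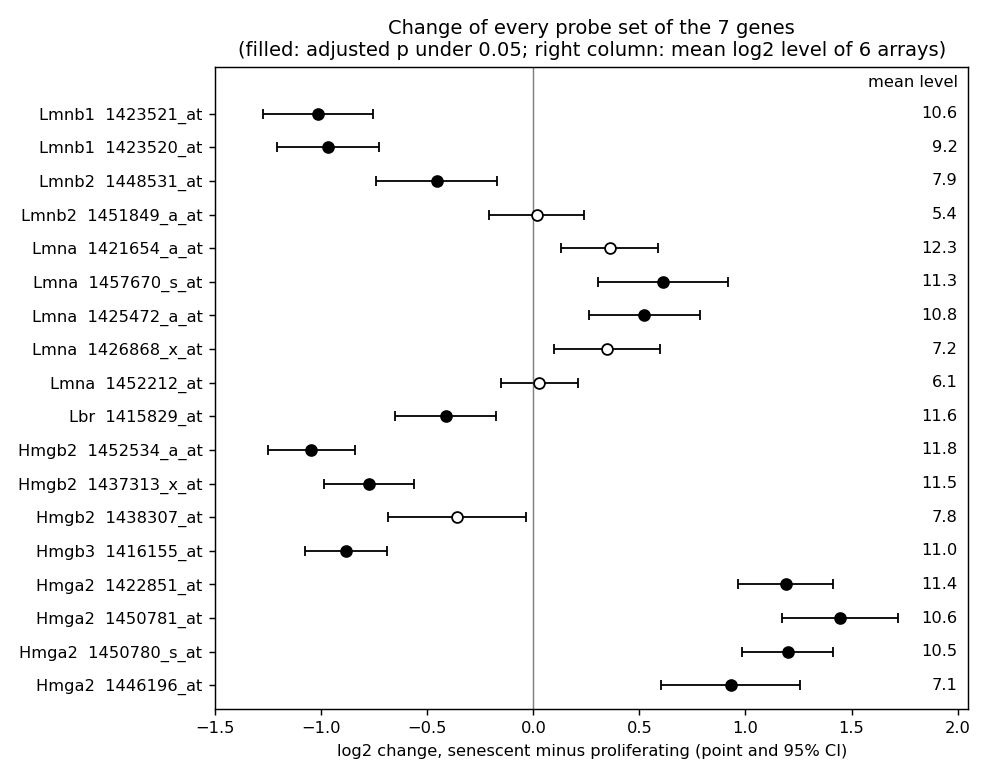
Log2 change, senescent minus proliferating (x axis), of each of the 18 probe sets (y axis) with its 95% confidence interval from limma over all probe sets, filled where the adjusted p was under 0.05, with the mean log2 level of the 6 arrays at the right. Of the 18, 6 were called higher and 7 lower; the 5 not called include the dimmest probe sets of Lmnb2, Lmna and Hmgb2, and those of Lmna turned or moved toward 0 under spike-in scaling.

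Over the probe sets, 13 of 18 passed, beside 5.99% of all probe sets called higher and 6.39% called lower. The median change of the 18 was 0.02, and that of all probe sets 0.002. Probe sets of 1 gene share a transcript and are not independent.

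Pairs of members were then compared within each array, which removes whatever scales an array as a whole. The difference Lmnb1 minus Lmna changed by -1.38 ± 0.15 (log2, SE) from proliferating to senescent cells, with single arrays at -1.56, -1.13 and -1.43 relative to the proliferating mean, against proliferating arrays between -0.13 and 0.11. Lmnb1 minus Lmnb2 changed by -0.56 ± 0.10 and Lmnb1 minus Lbr by -0.60 ± 0.06. Hmga2 minus Hmgb2 rose by 2.24 ± 0.08, the senescent arrays at 2.18, 2.17 and 2.35. The groups did not overlap for any of the 4 pairs. For Lmnb1 minus Lmna and Hmga2 minus Hmgb2 this was fixed in advance. In both, the single genes already lay apart in opposite directions, so neither pair is a further test. Each exact two-sided permutation p was 0.1, also after adjustment over the 4 pairs, and 0.1 is the smallest that 3 arrays against 3 can give. Another 3 pairs involved Hmgb1 or Hmga1 and could not be formed.

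**Figure D3:**
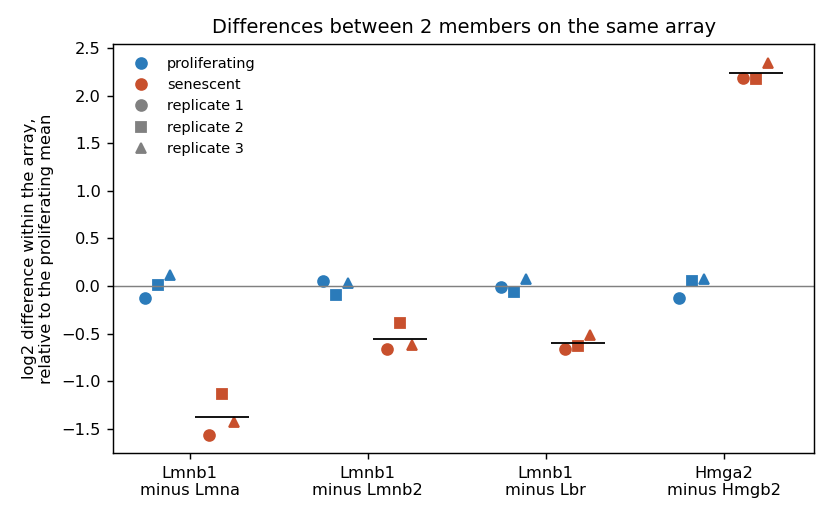
Difference between 2 member genes on the same array (y axis, log2, relative to the mean of the proliferating arrays) for 4 pairs (x axis), with proliferating arrays in blue, senescent arrays in orange, shapes for replicates and a line at the senescent mean. The senescent arrays lie below the proliferating arrays for the first 3 pairs and above them for Hmga2 minus Hmgb2.

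The printed promoters were chosen for their letters. Hmgb2, Hmgb3 and Lbr, called lower, held letters known from promoters of cell cycle genes, and Hmga2, called higher, did not. Lmnb2, also called lower, lacked them too and is not printed. RefSeq sequences (GRCm38.p6) were found for 6 of the 7 genes, all but Lmnb1, with 8 promoters. The 250 bases before the transcript start were searched on both strands for the CHR element of cell cycle genes (TTTGAA), the CCAAT box (CCAAT), and the E2F motif (TTTCCCGC, TTTCGCGC, TTTGCCGC or TTTGGCGC). Matches of different motifs did not overlap in the member windows. Capitals mark CHR and CCAAT matches in either orientation, 5′ to 3′ along the gene. The windows are chr8:57511593-57511842, plus strand for Hmgb2, chrX:71555667-71555916, plus strand for Hmgb3, chr1:181842402-181842651, minus strand for Lbr and chr10:120476470-120476719, minus strand for Hmga2.
Hmgb2: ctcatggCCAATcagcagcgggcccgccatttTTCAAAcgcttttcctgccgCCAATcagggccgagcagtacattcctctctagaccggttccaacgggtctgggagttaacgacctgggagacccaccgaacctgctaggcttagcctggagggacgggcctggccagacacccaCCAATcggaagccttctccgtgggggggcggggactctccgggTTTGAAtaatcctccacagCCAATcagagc
Hmgb3: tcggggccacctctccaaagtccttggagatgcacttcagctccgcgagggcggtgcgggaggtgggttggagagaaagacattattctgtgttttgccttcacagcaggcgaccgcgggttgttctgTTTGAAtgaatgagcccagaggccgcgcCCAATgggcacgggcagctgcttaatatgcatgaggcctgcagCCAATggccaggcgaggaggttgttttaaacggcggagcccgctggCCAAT
Lbr: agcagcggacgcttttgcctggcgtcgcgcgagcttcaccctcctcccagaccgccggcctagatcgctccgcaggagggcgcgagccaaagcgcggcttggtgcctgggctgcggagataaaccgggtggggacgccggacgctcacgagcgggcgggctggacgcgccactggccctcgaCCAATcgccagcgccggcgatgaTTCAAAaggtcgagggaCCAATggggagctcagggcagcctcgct
Hmga2: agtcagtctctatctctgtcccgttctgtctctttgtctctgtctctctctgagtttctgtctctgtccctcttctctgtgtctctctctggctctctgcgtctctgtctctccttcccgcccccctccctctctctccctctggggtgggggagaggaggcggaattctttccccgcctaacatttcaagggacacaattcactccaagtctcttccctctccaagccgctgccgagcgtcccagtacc

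Hmgb2, Hmgb3 and Lbr, all called lower, held CHR and CCAAT letters together. Hmgb2 had 2 CHR and 4 CCAAT matches, Hmgb3 1 and 3, and Lbr 1 and 2. The CHR match nearest the start began 30 bases before it in Hmgb2, 45 in Lbr and 122 in Hmgb3. Hmga2 and the 2 windows of Lmnb2 had none of either, and the 2 windows of Lmna had 1 CCAAT match between them and no CHR. No member window held the E2F letters. Of all 32851 promoters, 16.0% held CHR letters, 33.8% a CCAAT box, 5.55% both and 1.86% the E2F letters. Both CHR and CCAAT letters were in 5.04% of the promoters of genes called lower, in 2.63% of those called higher and in 4.35% of those not called, so the pairing was uncommon in each class. For the E2F letters these shares were 5.24%, 2.24% and 2.34%. A match is a run of letters and not a binding site.

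Genes that act beside the members came from 9 lists, which together held 101 measured genes. Of these, 8 rose and 31 fell, including 1 and 11 of the cell cycle list, beside 20% called of all genes and 27.5% of genes above background. The count of 39 was 25 without senescent replicate 1.

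Among 22 partners of the lamina and nuclear envelope, 5 fell and 1 rose, a share close to the 27.5% called among genes above background, with a median log2 change of -0.007 beside -0.002 for all genes. Syne2, which encodes the giant spectrin-repeat protein nesprin 2 of the outer nuclear membrane, fell 2.20-fold from 8.49 ± 0.18 to 7.35 ± 0.28 (SD, n = 3), and 1.44-fold with the mean of its probe sets or 1.40-fold without suffixed probe sets. Nrm, nurim of the inner nuclear membrane, fell 1.56-fold (1.29-fold with the mean of its probe sets), and Banf1, the DNA-bridging barrier-to-autointegration factor, 1.34-fold. Sun1, which couples nesprins to the lamina, and Tmpo, the lamina-associated polypeptide 2, had -0.36 and -0.27. The riser was Syne1, nesprin 1, with 0.33, a direction that turned under spike-in scaling (-0.27). The calls of Sun1, Tmpo and Syne1 each ended without 4 or 5 of the arrays in turn (-0.38 to -0.27, -0.27 to -0.24 and 0.28 to 0.33). Without the probe sets of suffix _s_at, _x_at or _a_at, Tmpo read 0.05 (adjusted p = 0.749). Emd (emerin) and Lemd3 were among the 16 that missed the threshold.

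Of 11 enzymes of lamin processing and envelope assembly, 1 passed, Icmt, the methyltransferase that finishes prenylated lamins, with 0.35 ± 0.08 (SE). Its call ended without proliferating replicate 2 or senescent replicate 1 or 3 (0.30 to 0.35), and it read -0.25 under spike-in scaling. Among the others were Fnta, a farnesyltransferase subunit, with -0.01 ± 0.06, and Zmpste24, the protease that cleaves prelamin A, with 0.12 ± 0.07 (adjusted p = 0.917 and 0.259, limma).

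Of 8 measured heterochromatin proteins linked to the lamin B receptor, 3 fell, with a median of -0.20. Of all genes 10.5% were called lower, and of those above background 27.5% were called in either direction. Cbx1, the heterochromatin protein HP1 beta, fell 1.50-fold from 10.74 ± 0.05 to 10.16 ± 0.05 (SD, n = 3). Suv39h2, a histone H3 lysine methyltransferase, and Hdac3, a deacetylase recruited to the nuclear periphery, had -0.54 and -0.25. Hdac3 missed the threshold with any 1 array left out (-0.29 to -0.21) and Suv39h2 with any but proliferating replicate 1 left out (-0.56 to -0.44).

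Among 14 other measured high mobility group genes, 5 fell, with a median of -0.21, where 10.5% of all genes were called lower and 27.5% of those above background in either direction. Hmgn5, a nucleosome-binding protein, fell 1.44-fold and Pbrm1, a chromatin remodelling subunit with an HMG box, 1.43-fold. Hmgxb4, Hmgn3 and Tox4 had -0.35, -0.30 and -0.24. Their calls ended without 1 array in 3, 2 and 6 of the 6 cases (-0.34 to -0.30, -0.28 and -0.26 to -0.23). Hmgn1, a nucleosome-binding gene, was among the 9 not called.

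Linker histones, which HMG proteins can displace from chromatin, were represented by 3 genes. H1f2 rose 1.76-fold, from 11.90 ± 0.30 to 12.72 ± 0.06 (SD, n = 3), and H1f10 fell 1.29-fold. The call of H1f2 ended under spike-in scaling (0.22) and without probe sets of suffix _s_at, _x_at or _a_at (0.21, limma adjusted p = 0.0984), and 1 member, H1f4, was below background.

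Of 12 receptors and partners of HMGB1 outside the cell, 3 rose and 3 fell, with a median of -0.07, beside 20% called of all genes. Cxcl12, the chemokine that binds HMGB1, was 1.78-fold lower, from 14.30 ± 0.10 to 13.47 ± 0.16 (SD, n = 3), and the receptor genes Tlr4 and Ager had -0.48 and -0.42. Thbd, thrombomodulin, and Cd24a had 0.36 and 0.29, both negative under spike-in scaling (-0.23 and -0.31). Havcr2 passed with every array of both groups below background, so no fold is given. Ager missed the threshold without proliferating replicate 1 or senescent replicate 2 or 3 (-0.41 to -0.32), Thbd without any of 4 arrays (0.31 to 0.37) and Cd24a without any of 5 (0.25 to 0.30).

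Hmga2 RNA is a textbook target of let-7 microRNAs, which arrays of this kind do not read. Of 8 measured genes of that axis, 5 lay above background in each group. Of all 8, 0 passed in limma, and 0 had an unadjusted p under 0.05. Under 13 other settings 0 or 1 passed. With spike-in scaling 8 were called, all lower, as were 15145 of the 18193 genes on the array. Those calls share 1 offset between the groups and are not independent. Lin28a and Lin28b, which block let-7 maturation, were below background, and Igf2bp3 and Dicer1 had 0.11 ± 0.07 and 0.07 ± 0.07 (SE).

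Among 9 proteins that work with HMGB proteins on damaged or recombining DNA, 3 fell and 1 rose, with a median of -0.18. Of all genes, 20% were called. Anp32a, a member of the SET complex that contains HMGB2, fell 1.59-fold, Parp1, the poly(ADP-ribose) polymerase, 1.29-fold and Xrcc6, Ku70, 1.26-fold. Xrcc5, Ku80, had 0.27. The call of Xrcc6 ended without proliferating replicate 2 (-0.33, adjusted p = 0.0510), and that of Xrcc5 without any of 4 arrays (0.24 to 0.27), with -0.32 under spike-in scaling.

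Cell cycle genes were set beside the members because Lmnb1 and Hmgb2 are known to be made in dividing cells. Of 14 measured, 11 fell, 1 rose and 2 were not called, with a median of -0.58. All 14 lay above background in each group. The mean over the list ran from 11.19 to 11.38 on proliferating arrays and from 10.83 to 10.86 on senescent arrays. The largest falls of the list were those of Ccnb2, Aurkb, Bub1 and Top2a, with -1.10, -0.73, -0.70 and -0.67 (Top2a -0.36 with the mean of its probe sets). Lmnb1, Hmgb2 and Hmgb3 had -1.02, -1.05 and -0.88. The riser, Rrm2, had 0.35 and missed the threshold without proliferating replicate 1 or any 1 senescent array (0.26 to 0.38), reading -0.24 under spike-in scaling. The part of cell division in the members' changes was not tested.

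**Figure D4:**
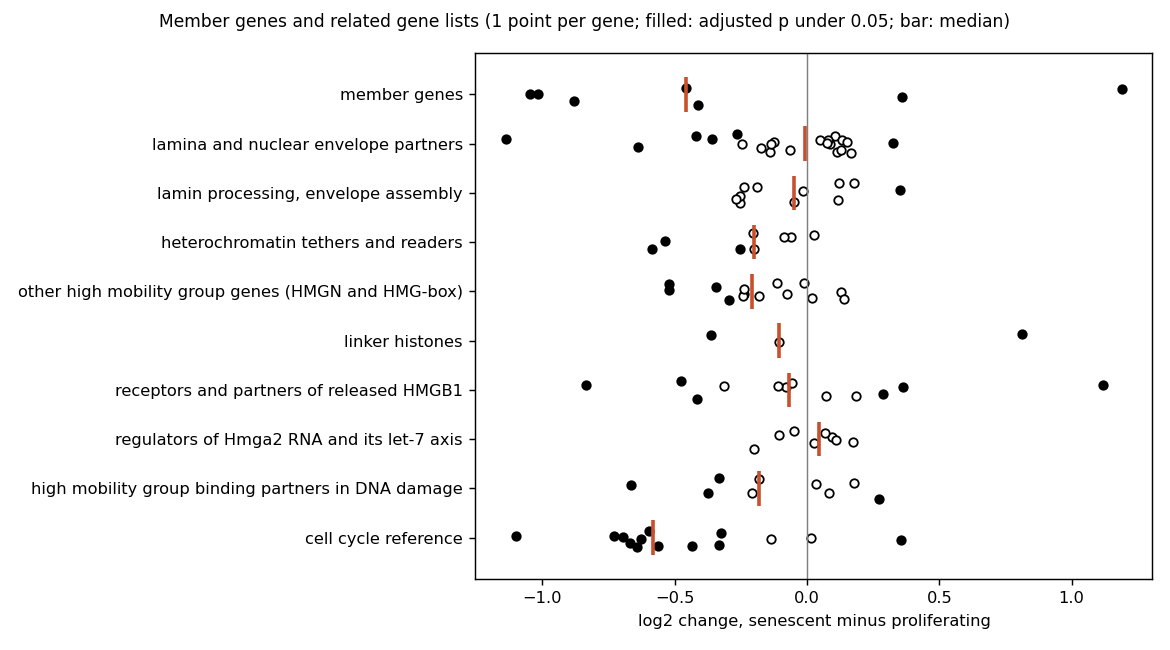
Log2 change, senescent minus proliferating (x axis), of the 7 member genes and of the measured genes of 9 related lists (y axis), 1 point a gene, filled where the adjusted p was under 0.05, with a bar at the median. The members run from -1.05 (Hmgb2) to 1.19 (Hmga2), Syne2 and Ccnb2 lie lower, and the cell cycle list has the lowest median, -0.58. Spike-in scaling moves every point by -0.60, so positive changes smaller than that turn.

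Genes whose profile over the 6 arrays was closest to a member's, each centred on its own mean, were ranked by root mean square difference among 12485 genes above background. Adamtsl3, Syt1 and Met were nearest to Lmnb1 (0.082, 0.084 and 0.086 log2), Ptx3, Snai2 and Slit2 to Hmgb2 (0.046, 0.059 and 0.062), and Mfap5, Vopp1 and Pbp2 to Hmga2 (0.053, 0.069 and 0.074). Their changes were -0.90, -0.93 and -0.98, then -0.99, -1.15 and -0.97, then 1.24, 1.10 and 1.13. These are descriptions of likeness with no test.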

How the data were processed

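Gene expression was measured on Affymetrix arrays of biotin-labelled RNA from 3 proliferating and 3 senescent samples. The deposited values are log2 expression of probe sets, which the authors obtained with RMA, per the submitters' processing notes; its software and chip description are not given in the sources. RMA brings the arrays to nearly one distribution, here within 0.123 log2 units at any rank, so changes are relative to the other genes, and it compresses those of dim and bright probe sets. An annotation table named 34945 probe sets with 1 gene, apart from 64 controls, and 932 with several, which were not read. Symbols were updated through RefSeq (34754 matched, 204 kept). Each gene was read from its brightest probe set and tested in R 4.3.3 with limma 3.58.1 (lmFit, eBayes), with Benjamini-Hochberg adjustment over 18193 genes and a threshold of 0.05; a second fit covered 45037 probe sets. On simulated data the gene fit recovered 77.6% of changes of 0.5 log2 and the probe-set fit 43.3%. Changes of 1 log2 were recovered in 100% and 97.0%. The simulation changed 67 genes or probe sets at each of these sizes, a smaller share than was called in the data, so recovery there may differ. A probe set that was not called may still have changed by 0.5 log2. Pairs used exact permutation (scipy 1.17.1), and figures matplotlib 3.10.9. The number of arrays limits the precision, and no batches are given. The members and lists were chosen with earlier results of these data known. Genes named were the members, Cdkn1a, up to 4 called genes per list and direction by size, the 2 brightest of a list with fewer than 2 calls, and the 3 genes most alike. Tmpo, Tox4, Emd, Lemd3, Hmgn1, H1f4, Lin28a, Lin28b and the cell type markers named were chosen outside this rule. Alternatives covered the probe set read, dim genes, scaling, the variance model, weights, the replicate block and left-out arrays. The transcript targeted by the hairpin is not analysed here.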

Additional observations from a re-analysis of the deposited data

How the results depend on the processing

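The calls of Lmnb1, Hmgb3 and Hmga2 held under all 14 alternatives, with log2 changes of -1.61 to -0.92, -1.48 to -0.81 and 0.59 to 1.26. That of Hmgb2 held under all but the choice of probe sets without suffix (-0.36). For Lmnb1, Hmgb3 and Hmga2 that choice read the same probe set again. For Hmgb3, which has a single probe set, so did the mean of probe sets. With arrays scaled to the poly-A spike-ins, which read 0.60 ± 0.17 (log2, SE) higher on senescent arrays (exact two-sided permutation p = 0.1, the smallest possible), the median of all genes moved to -0.60. This gave 15320 calls, 1.14% of them higher, and 94 calls in the related lists. The limma SE in that fit was 0.20 for each of the 7 members, beside 0.17 for the spike-ins' own difference. The calls share 1 offset between the groups, so they are not independent, and their adjusted p do not measure single genes. Lmna then read -0.24, or 0.36 above that median, its probe sets 1425472_a_at and 1452212_at -0.073 and -0.57, and the dim probe set of Lmnb2 -0.58. The named genes Cd24a, Dicer1, Icmt, Igf2bp3, Rrm2, Syne1, Thbd, Xrcc5 and Zmpste24 also turned, to -0.31, -0.53, -0.25, -0.49, -0.24, -0.27, -0.23, -0.32 and -0.47. Read without probe sets of suffix _s_at, _x_at or _a_at, Ager gave 0.16, Tmpo 0.047 and Lmna 0.03 (adjusted p = 0.865), and the calls of Rrm2 and Top2a ended (0.31 and -0.50). With the mean of all probe sets of a gene, the calls of Ager, Hmgxb4, Rrm2, Tlr4, Tmpo, Tox4 and Xrcc6 ended (-0.13, -0.09, 0.24, -0.21, -0.14, -0.15 and -0.09). Spike-in scaling moved every gene by the same amount, so its turns follow from that shift alone; the cause of the changes with other probe sets was not tested. Centring on genes of middle level made 63.2% of calls higher, compared with 47.4%, and ended the calls of Hdac3, Hmgn3, Sun1, Tmpo and Tox4 (-0.19, -0.23, -0.29, -0.20 and -0.17). With single arrays left out, 2434 to 3337 genes, 4 to 6 members, 25 to 34 genes of the related lists and 9 to 13 member probe sets were called, and the pair differences ran from -1.50 to -1.28, -0.64 to -0.51, -0.65 to -0.57 and 2.17 to 2.27. These ranges do not cover the choice of probe set. Without suffixed probe sets Hmgb2 read -0.36 and Lmna 0.03, so Hmga2 minus Hmgb2 and Lmnb1 minus Lmna changed less than in the main reading. Arrays with the same replicate number did not deviate together (correlations of 0.09, -0.07 and -0.15 across genes). This cannot show whether they shared a culture or a day, and pairing is not known. A replicate block gave 2935 calls and 7 of 7 members, with 12 of 18 probe sets, and the brightest probe set of Lmnb2 missed the threshold in the probe-set fit (adjusted p = 0.0574), as did Cd24a, Hdac3, Sun1, Tmpo, Tox4 and Xrcc5 in the gene fit (largest adjusted p = 0.0900).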
